A study of Mus musculus with 24 samples.

Results

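The 10 receptors described here receive the hormonal signals of stress and feeding: the glucocorticoid receptor Nr3c1, the mineralocorticoid receptor Nr3c2, the corticotropin-releasing factor (CRF) receptors Crhr1 and Crhr2, the vasopressin receptors Avpr1a and Avpr1b, the oxytocin receptor Oxtr, the melanocortin receptors Mc3r and Mc4r, and the glucagon-like peptide 1 receptor Glp1r. They were taken by gene name from a table of 47593 genes, and all 10 were found. Their mRNA was measured by poly(A) RNA sequencing of hippocampus from male C57BL/6J mice, either wild type (WT) or lacking the antiproliferative protein TOB (Tob-KO), in 24 libraries. Each genotype had 3 libraries from naive mice and 3 for each time of collection after fear conditioning (15 min, 1 h or 3 h), a training in which a tone is paired with foot shock. The behavioural work of the study used mice of 8 to 12 weeks, and no separate age is given for the sequenced animals. Tob-KO denotes a deletion in the whole animal, so it is not limited to the hippocampus or to the time of conditioning. The study's methods call its replicates biological, without tying a library number to a mouse, so the p-values measure the spread between libraries.

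Released CRF drives the pituitary to secrete the hormone that makes the adrenal gland release corticosteroids, and vasopressin strengthens that drive. Corticosteroids bind Nr3c2 at low and Nr3c1 at high concentrations; both are transcription factors, and both are abundant in hippocampal neurons. The other 8 members are G protein-coupled receptors of the cell surface, best known from the hypothalamus, septum, amygdala and brainstem, where they act on stress responses, social behaviour and food intake.

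Library totals ran from 28847989 to 41595972 counts, with a median of 31169386.5. Levels are in CPM, counts per 1000000 counts of the library, scaled by TMM (trimmed mean of M-values) factors between 0.983 and 1.01. At these depths a count of 0 allowed a level of up to between 0.0724 and 0.104 CPM (3 counts, counting error only). The targeted gene went against its label: libraries labelled WT averaged 40.4 ± 3.39 CPM of Tob1 (SD, n = 12), and those labelled Tob-KO were higher without overlap, with 59.7 ± 6.62 CPM (SD, n = 12), so every genotype direction below refers to the labels. Hippocampal subfield markers were present in all libraries, where the 10 genes summed to between 588 and 861 CPM. All 8 hypothalamus markers averaged under 0.2 CPM. Choroid plexus markers (15 genes) varied far more, from 737 to 5120 CPM in 14 libraries (6 WT, 8 Tob-KO) and from 42.0 to 84.5 CPM in the other 10 (6 WT, 4 Tob-KO). In tissue RNA, fewer cells of a type and less RNA per cell cannot be told apart.

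The corticosteroid receptors dominated the set. Scaled to exon length, Nr3c2 averaged 29.5 CPM per kb over the 24 libraries and Nr3c1 15.7 CPM per kb. Crhr1, through which CRF itself acts, averaged 4.95 CPM per kb, Oxtr 2.12 CPM per kb and Mc4r 1.68 CPM per kb. These 5 receptors kept this order in their means, and the library ranges of Nr3c2, Nr3c1 and Crhr1 did not meet: 22.3 to 39.4, 13.5 to 17.6 and 2.85 to 7.18 CPM per kb. The ranges of Oxtr (1.61 to 2.74) and Mc4r (1.18 to 2.14) overlapped.

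The sparse receptors lay below them. Crhr2, the receptor preferred by the urocortins, averaged 0.649 CPM per kb and Glp1r 0.583 CPM per kb. Avpr1a (0.291), Mc3r (0.289) and Avpr1b (0.122 CPM per kb) were the lowest. The ranges of these 5 overlapped between neighbours in the order.

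**Figure D1:**
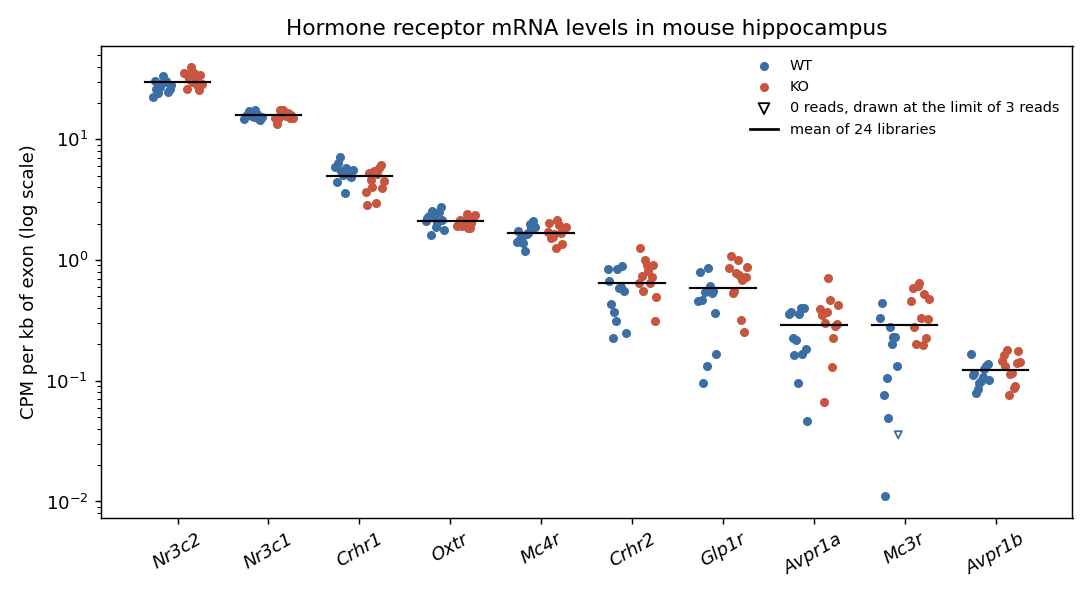
Level of each receptor in CPM per kb of exon (log scale) in the 24 libraries, blue for WT and red for Tob-KO, with a line at the mean; the open triangle is the library with 0 Mc3r reads. Nr3c2, Nr3c1 and Crhr1 average 29.5, 15.7 and 4.95 CPM per kb, and Mc3r, Avpr1a and Glp1r spread most widely between libraries.

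Spread between libraries also differed between the receptors. The coefficient of variation of CPM over all 24 libraries was 6.88% for Nr3c1, 12.7% for Oxtr, 14.1% for Nr3c2, 15.8% for Mc4r and 21.5% for Crhr1. It reached 39.9% for Crhr2, 46.4% for Glp1r, 51.5% for Avpr1a and 65.3% for Mc3r. Avpr1b was sparser than these (median of 16 counts) but varied by only 25.3%, so low counts were not always joined to wide spread. Raw counts ran from 4 to 79 for Avpr1a, from 0 to 70 for Mc3r, from 19 to 241 for Glp1r and from 40 to 205 for Crhr2. For these receptors, neighbouring groups in the order of the 8 group means overlapped in all 7 pairs, as they did for every member.

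By position on GRCm38, Nr3c2 lies on chromosome 8 (76899442 to 77245012), Crhr2 on chromosome 6 (55090049 to 55133016), Oxtr also on chromosome 6 (112473683 to 112489943) and Avpr1a on chromosome 10 (122448499 to 122453452). Mc3r is a gene of 1 exon on chromosome 2 (172248492 to 172251114), and Glp1r lies on chromosome 17 (30901817 to 30940791). Avpr1b lies on chromosome 1 (131599239 to 131612000). Crhr1 on chromosome 11 (104132855 to 104175523) lies 9.92 Mb beyond Tob1 on the same chromosome, so for it the deletion and the chromosome segment bred along with it cannot be told apart. In the annotation, Nr3c2 shares 247 bp of exon with Gm10649 on the opposite strand, and the strand setting of the counting is not given in the sources used here. No other member shares exon sequence with another annotated gene.

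Crhr2 and Mc3r are the members whose genotype comparison passed the test in the 15 min libraries, and their levels moved together over the 24 libraries, so the 250 bases before their transcription starts are shown (RefSeq, GRCm38.p6). The Mc3r stretch is chr2:172248242-172248491 on the forward strand, and the Crhr2 stretch is chr6:55133017-55133266 on the reverse strand. Capitals mark a TATA box.
Mc3r: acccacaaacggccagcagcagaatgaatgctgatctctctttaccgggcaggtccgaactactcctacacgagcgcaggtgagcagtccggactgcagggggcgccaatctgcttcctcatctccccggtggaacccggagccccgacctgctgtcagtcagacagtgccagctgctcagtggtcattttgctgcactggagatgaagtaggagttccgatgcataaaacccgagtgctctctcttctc
Crhr2: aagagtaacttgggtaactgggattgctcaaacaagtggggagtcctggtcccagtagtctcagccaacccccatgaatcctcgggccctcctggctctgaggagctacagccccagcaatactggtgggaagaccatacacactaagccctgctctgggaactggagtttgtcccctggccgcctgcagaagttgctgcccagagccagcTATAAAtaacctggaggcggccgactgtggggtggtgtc
Both stretches hold 57.6% G or C, with 12 CpG dinucleotides before Mc3r and 4 before Crhr2. Of the 7 members with an entry (Nr3c2, Crhr1, Crhr2, Avpr1a, Oxtr, Mc3r and Glp1r), none held AGAACA, a half-site of the corticosteroid receptors, on either strand, against 16.1% of 32851 promoters. None held TGACGTCA, the cyclic AMP response element, which 1.55% of promoters held. TATAAA on either strand stood before Crhr2 and Avpr1a, as it did in 12.4% of promoters. A match or its absence in this window is a description of letters only.

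Tob-KO and WT hippocampus were compared within each time point with the exact test of edgeR, calling genes at an FDR of 0.05 with a fold change of 2 or more. In the 15 min libraries 2 of 10 members were called, Crhr2 and Mc3r, both higher in Tob-KO, against 0.555% of the 18364 genes tested (102 genes). With 1 library left out that number of genes ran from 30 to 252: it was 30 and 43 without WT replicate 3 and 1, 33 and 34 without Tob-KO replicate 3 and 2, and 252 without Tob-KO replicate 1, while Crhr2 and Mc3r were called each time. Their standing is not independent evidence, because the study picked Mc3r, Crhr2 and Avpr1a from these same libraries. In naive libraries no member was called (0.0218% of genes were), and 1 member had an unadjusted p under 0.05, beside 742 of 18364 genes. At 1 h (0.033% of genes) and 3 h (0.0274% of genes) no member was called, and none had an unadjusted p under 0.05. The median log2 difference of the 10 members was 0.41 at 15 min, beside -0.01 over all genes tested, and 0.17, -0.04 and 0.10 in naive, 1 h and 3 h libraries.

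For Crhr2, the WT libraries of 15 min gave 1.16, 1.89 and 1.60 CPM, against 2.82, 5.13 and 4.68 CPM for Tob-KO. The groups did not overlap, and the lowest group mean of the whole series was that of WT at 15 min. The log2 difference was 1.45 (SE 0.26), with an adjusted p of 0.000982. In naive libraries Crhr2 averaged 3.34 ± 1.06 CPM (SD, n = 3) in WT and 4.50 ± 1.69 CPM (SD, n = 3) in Tob-KO, and the groups overlapped. At 1 h the means were 3.46 and 3.71 CPM, and at 3 h 2.89 and 2.91 CPM.

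Mc3r, a melanocortin receptor with a part in energy balance and fat storage, rested on few reads. At 15 min the WT libraries held 1, 8 and 4 reads (0.0291, 0.274 and 0.128 CPM) and the Tob-KO libraries 16, 57 and 70 reads (0.530, 1.60 and 1.69 CPM). The groups did not overlap, but the exact 95% Poisson intervals of their nearest libraries did, at 3.45 to 15.8 for 8 reads and 9.15 to 26.0 for 16 reads (counting error only). The log2 difference was 3.16 (SE 0.63), with an adjusted p of 0.000982. With 1 library left out it ran from 2.66 to 4.0, the highest value without WT replicate 2, and the call was kept each time. Mc3r averaged 0.742 ± 0.492 CPM in naive WT and 1.16 ± 0.404 CPM in naive Tob-KO (SD, n = 3 each), with overlap. At 1 h the means were 0.622 and 0.917 CPM. At 3 h the WT libraries held 18, 10 and 0 reads and the Tob-KO libraries 18, 26 and 44 reads (2.83-fold higher in Tob-KO, adjusted p = 1 by the exact test of edgeR).

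Avpr1a and Glp1r had the same arrangement at 15 min without passing the test. Avpr1a, a vasopressin receptor of brain and blood vessels, gave 0.436, 0.583 and 0.256 CPM for WT, against 0.795, 0.981 and 1.91 CPM for Tob-KO. The groups did not overlap, and the log2 difference was 1.54 (SE 0.42, adjusted p = 0.0807 by the exact test of edgeR). With 1 library left out the log2 difference ran from 1.07 to 1.82, and the adjusted p from 0.00572, without Tob-KO replicate 1, the lowest of its group, to 0.493, without Tob-KO replicate 3, the highest. Glp1r gave 0.552, 3.16 and 0.769 CPM for WT, against 3.21, 4.54 and 5.82 CPM for Tob-KO. WT replicate 2 lay just below the lowest Tob-KO library. The log2 difference was 1.60 (SE 0.53, adjusted p = 0.205 by the exact test of edgeR). With 1 library left out it ran from 1.21, without WT replicate 1, to 2.78, without WT replicate 2. The adjusted p then ran from 4.63e-10, without WT replicate 2, which lay nearest to Tob-KO, to 0.673, without WT replicate 3.

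The 2 calls at 15 min depended on the test. With the quasi-likelihood test of edgeR on the same 6 libraries and the same fold limit of 2, no gene was called, and both Crhr2 and Mc3r had an adjusted p of 0.448. Without the fold limit that test called 1 gene, Tob1, and 1577 of 18364 genes, 5 members among them, had an unadjusted p under 0.05. With the replicate number as a block, the quasi-likelihood test called 6 genes and no member (adjusted p = 0.0918 for Crhr2 and 0.0963 for Mc3r). DESeq2 called both. With dispersions taken from all 24 libraries only Mc3r was called.

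**Figure D2:**
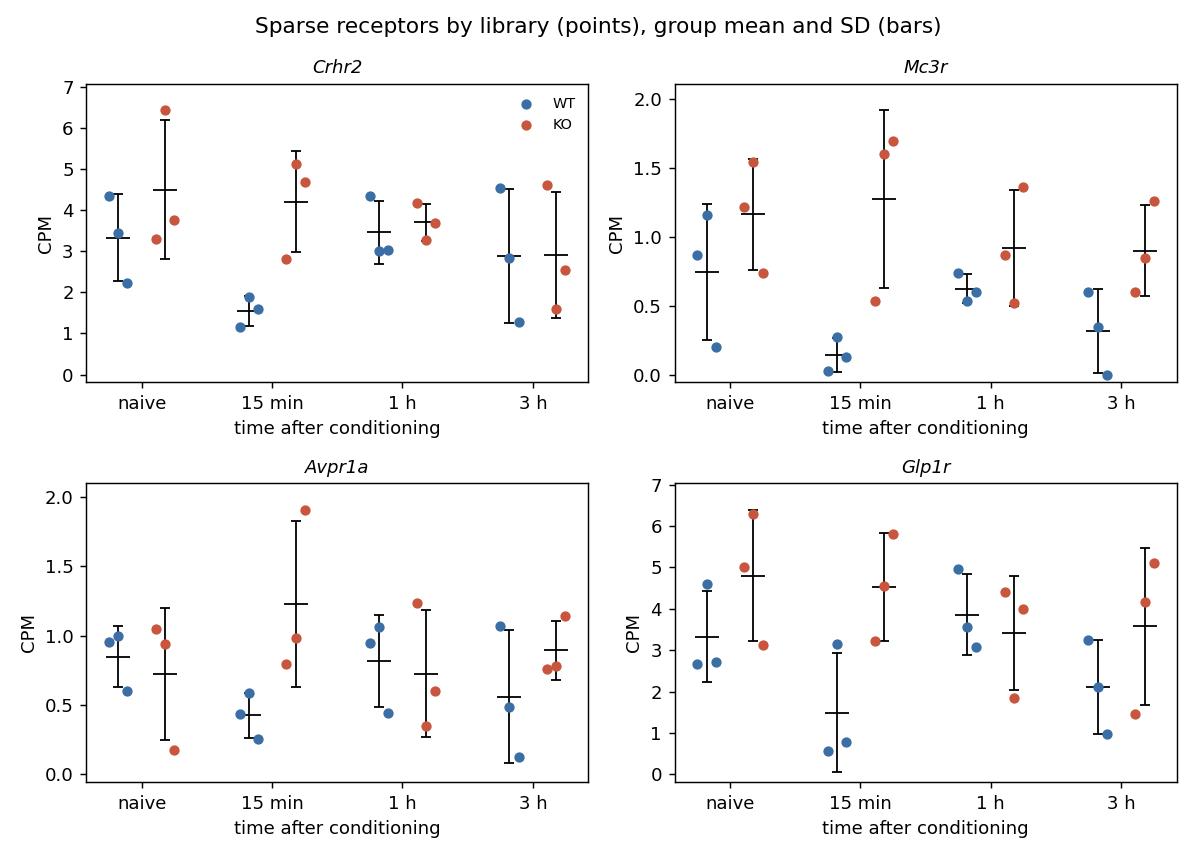
CPM of Crhr2, Mc3r, Avpr1a and Glp1r in each library (points) by time and genotype, with the group mean and SD (n = 3). WT at 15 min has the lowest mean of the 8 groups for each, and the largest fold difference there is that of Mc3r, 0.144 CPM in WT against 1.27 CPM in Tob-KO.

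Of the other members at 15 min, Nr3c2 was the only one whose groups did not overlap: 157, 174 and 184 CPM in WT against 204, 255 and 191 CPM in Tob-KO. Its log2 difference was 0.33 (SE 0.11, adjusted p = 0.18 by the exact test of edgeR). In all, 5 of 10 members did not overlap at 15 min, beside 13.5% of genes tested. No member was free of overlap in naive libraries (11.5% of genes were) or at 1 h (11.5%). At 3 h it was Avpr1b alone (12.2%), at 0.498 ± 0.0815 CPM in WT and 0.616 ± 0.0858 CPM in Tob-KO (SD, n = 3 each).

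**Figure D3:**
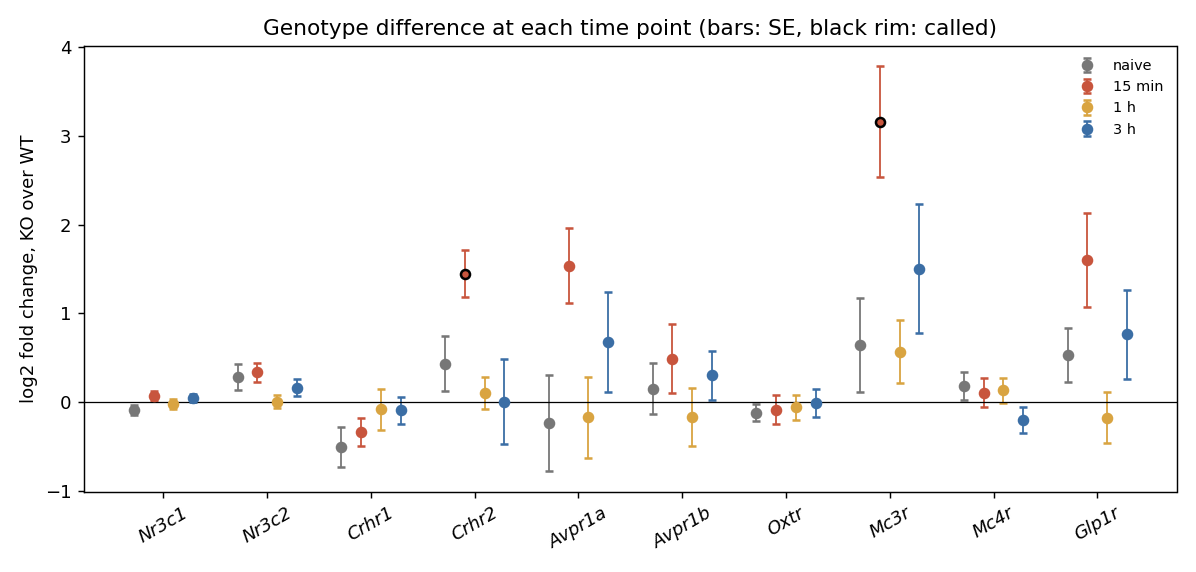
Log2 fold change of Tob-KO over WT for each receptor at the 4 time points, with SE bars; a black rim marks the 2 calls at 15 min. Crhr2 stands at 1.45 and Mc3r at 3.16, and all differences of Nr3c1, Oxtr and Mc4r lie close to 0.

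At 15 min, marker sums of choroid plexus, septum and basal forebrain, thalamus and pituitary were higher in Tob-KO without overlap. Those of ependyma, striatum, habenula and arterial smooth muscle overlapped between genotypes. Choroid plexus markers summed to 42.0, 57.8 and 56.6 CPM for WT, against 80.5, 3490 and 1352 CPM for Tob-KO, and 14 of these 15 markers were called higher in Tob-KO. The 8 septum and basal forebrain markers summed to 54.5, 93.5 and 61.0 CPM for WT, against 103, 124 and 169 CPM for Tob-KO, with 2 called higher (Lhx8 and Nkx2-1) and all 8 above 0. Of the defining cholinergic markers, Chat was at 0 in 1 library and Lhx8 in 5 libraries, while Zic1 averaged 47.9 CPM. The 5 ependyma markers summed to between 18.4 and 33.4 CPM in WT and to between 32.8 and 45.6 CPM in Tob-KO. The 8 thalamus markers summed to 93.2, 102 and 89.7 CPM for WT, against 113, 105 and 134 CPM for Tob-KO, with 1 called higher (Prkcd, log2 difference 1.08, SE 0.27) and 4 above 0. The 8 pituitary markers summed to at most 1.15 CPM in WT and to between 1.36 and 2.10 CPM in Tob-KO. Of these, 1 was called higher (Lhb, a subunit of luteinizing hormone). However, 6 of the 8 averaged under 0.2 CPM over the 24 libraries, and Cga had no read in any. The sum came mostly from Pomc (mean 0.948 CPM) and Lhb (0.442 CPM). The 8 striatum markers summed to 97.5, 100 and 94.8 CPM for WT, against 92.9, 110 and 120 CPM for Tob-KO, with 0 called and 6 above 0. The 5 habenula markers summed to 58.1, 48.0 and 55.6 CPM for WT, against 53.1, 45.3 and 50.9 CPM for Tob-KO. The sum of arterial smooth muscle markers averaged 49.9 ± 13.4 CPM in WT and 35.3 ± 7.04 CPM in Tob-KO (SD, n = 3 each). The part of these tissues in the receptor differences was not tested.

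Over all 24 libraries Glp1r correlated with the septum and basal forebrain sum at r = 0.92, Mc3r at 0.87 and Avpr1a at 0.82 (log2 values, which share library, depth and scaling). Of the sums compared, Crhr2 correlated best with that of choroid plexus, at r = 0.83. It also correlated with the ependyma sum at 0.77, the septum and basal forebrain sum at 0.67 and the striatum sum at 0.63. With the ependyma sum Mc3r, Glp1r and Avpr1a stood at 0.81, 0.74 and 0.57, so no receptor followed 1 tissue alone. The lowest septum and basal forebrain sums were those of WT 15 min replicate 1 (54.5 CPM), WT 3 h replicate 3 (60.3 CPM) and WT 15 min replicate 3 (61.0 CPM). These 3 libraries were also the lowest for Mc3r and the lowest for Glp1r. Crhr2 followed the choroid plexus sets in both genotypes: it averaged 3.76 ± 0.740 CPM (SD, n = 6) in the choroid-rich and 1.86 ± 0.683 CPM (SD, n = 6) in the choroid-poor WT libraries, against 4.47 ± 1.00 (SD, n = 8) and 2.56 ± 0.720 CPM (SD, n = 4) in Tob-KO.

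The genotype comparison at 15 min was repeated without these libraries. Without the 2 choroid-rich Tob-KO libraries the log2 differences were 0.87 for Crhr2 and 1.90 for Mc3r. Without the 2 WT libraries of lowest septum and basal forebrain sum the differences were 1.16 and 2.20. The libraries left out were the 2 highest of Tob-KO, or the 2 lowest of WT, for both receptors at 15 min. A smaller difference was therefore set by the choice of libraries, so these fits cannot show the part of the tissue. Each of these fits leaves 1 library in a group, which was assumed to vary like the other group.

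**Figure D4:**
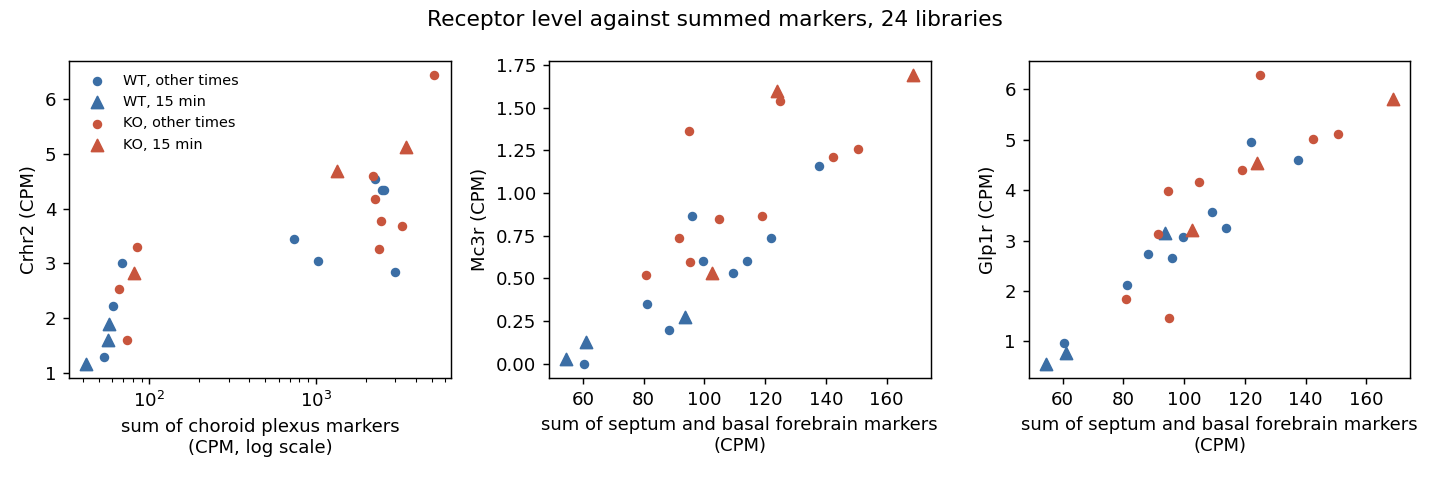
Crhr2 against the summed choroid plexus markers (log scale), and Mc3r and Glp1r against the summed septum and basal forebrain markers, in CPM for each of the 24 libraries; triangles are 15 min libraries, blue WT and red Tob-KO. The WT triangles lie at the low end of the marker sums, from 42.0 to 57.8 CPM for choroid plexus and from 54.5 to 93.5 CPM for septum and basal forebrain.

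Genotype was next compared over all time points together, 12 libraries against 12, with the quasi-likelihood test of edgeR and time as a covariate. No member was called, against 0.462% of 19500 genes tested (90 genes), and 5 members had an unadjusted p under 0.05, beside 2595 of the 19500 genes. Mc3r averaged 0.456 ± 0.356 CPM in WT and 1.06 ± 0.431 CPM in Tob-KO (SD, n = 12 each), a log2 difference of 1.30 (SE 0.36, adjusted p = 0.105). Here DESeq2 called Mc3r (adjusted p = 0.0177). Nr3c2 averaged 178 ± 20.4 and 204 ± 27.2 CPM (log2 difference 0.20, SE 0.07, adjusted p = 0.189). The differences of Glp1r (0.66), Crhr2 (0.48) and Crhr1 (-0.25) had adjusted p-values of 0.293, 0.335 and 0.361. Nr3c1 did not pass either, at 121 ± 7.61 and 121 ± 9.30 CPM (log2 difference 0.00, SE 0.03).

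Within the 14 choroid-rich libraries the genotype difference of Mc3r was 0.32 and that of Glp1r -0.12, and within the 10 choroid-poor libraries they were 2.80 and 1.38. No member passed the test in either set. The WT libraries of 15 min are all choroid-poor, and the Tob-KO libraries of 1 h are all choroid-rich. The 3 lowest values of Mc3r and of Glp1r all come from choroid-poor WT libraries. The contrast between the sets was therefore partly set by the split, which cannot show the part of the tissue. Without the 3 libraries of lowest septum and basal forebrain sum, Mc3r was at 0.85 (adjusted p = 0.276) and Crhr2 at 0.23. These 3 libraries are all WT, hold the lowest Mc3r values and are among the 4 lowest for Crhr2. Smaller differences were therefore set by leaving them out.

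Time after conditioning was compared with naive mice, both genotypes together, with the same fit; the 3 comparisons share the naive libraries. At 15 min 1 of 10 members was called, Nr3c1, against 4.7% of genes (917 of 19500). At 1 h no member was called, against 6.15% of genes (1200). At 3 h 0% of genes were called by the quasi-likelihood test of edgeR (1765 had an unadjusted p under 0.05, and DESeq2 called 12), and no member had an unadjusted p under 0.05.

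Nr3c1, the receptor through which high corticosteroid levels act, rose at 15 min by 0.18 on the log2 scale (SE 0.04, adjusted p = 0.00972). Naive mice gave 112, 121 and 121 CPM for WT, against 114, 104 and 113 CPM for Tob-KO. Mice at 15 min gave 132, 127 and 120 CPM for WT, against 135, 130 and 134 CPM for Tob-KO. The Tob-KO groups did not overlap, whereas the WT groups did. The share of all genes without overlap was not counted for these comparisons with naive mice. At 1 h the values were 117, 135 and 124 CPM for WT, against 124, 121 and 126 CPM for Tob-KO (log2 difference from naive 0.13, SE 0.04, adjusted p = 0.0571), and at 3 h the means were 114 and 118 CPM. The 15 min difference was 0.23 within the choroid-rich libraries (adjusted p = 0.118) and 0.13 within the choroid-poor libraries (adjusted p = 0.465). The call was not reached in either set. At 15 min the only choroid-rich libraries were Tob-KO replicates 2 and 3, while Tob-KO replicate 1 and all WT libraries were choroid-poor. Choroid set and genotype were thus unbalanced at 15 min, and these fits cannot show the part of either.

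Within Tob-KO, Nr3c1 rose at 15 min by 0.27 on the log2 scale (SE 0.05, adjusted p = 0.0146), as 2.51% of genes (490) were called there, a number that ran from 40, without Tob-KO 15 min replicate 3, to 817, without Tob-KO 15 min replicate 2. Within WT its difference was 0.10 (SE 0.05, adjusted p = 0.612), and no member was called, against 0.0462% of genes. The difference between the genotypes in this response was 0.17 (SE 0.07, adjusted p = 0.981 by the quasi-likelihood test of edgeR), so it was not shown to differ between them. The Tob-KO call was lost without Tob-KO naive replicate 2 (adjusted p = 0.0567) and without Tob-KO 15 min replicate 3 (adjusted p = 0.0735). With only the 6 libraries compared it was also lost (adjusted p = 0.169).

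No other member was called at any time in either genotype. The share of genes called was 0.185% at 1 h and 0% at 3 h in WT, and 1.13% at 1 h and 0% at 3 h in Tob-KO. At 3 h, 779 genes in WT and 2071 in Tob-KO had an unadjusted p under 0.05 by the quasi-likelihood test of edgeR, and DESeq2 called 0 and 27, none of them a member. Mc4r in WT at 3 h and Nr3c1 in Tob-KO at 1 h were the members with an unadjusted p under 0.05 at these later times. In WT at 15 min, Mc3r (-2.40, SE 0.80), Crhr2 (-1.12, SE 0.41), Glp1r (-1.18, SE 0.55) and Avpr1b (-0.61, SE 0.29) had unadjusted p-values under 0.05, as had 1699 of 19500 genes, and adjusted p-values of 0.482, 0.51, 0.569 and 0.571. In Tob-KO the same differences were 0.15, -0.09, -0.08 and -0.27. The interaction of genotype and time called 0% of genes at 15 min, 0% at 1 h and 0% at 3 h by the quasi-likelihood test of edgeR, where 939, 809 and 924 genes had an unadjusted p under 0.05, and DESeq2 called 0 at each time. At 15 min 3 members had an unadjusted p under 0.05, Mc3r (2.55, SE 0.99), Nr3c1 and Avpr1a (1.80, SE 0.83), each with an adjusted p of 0.981, and at the other times no member had.

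**Figure D5:**
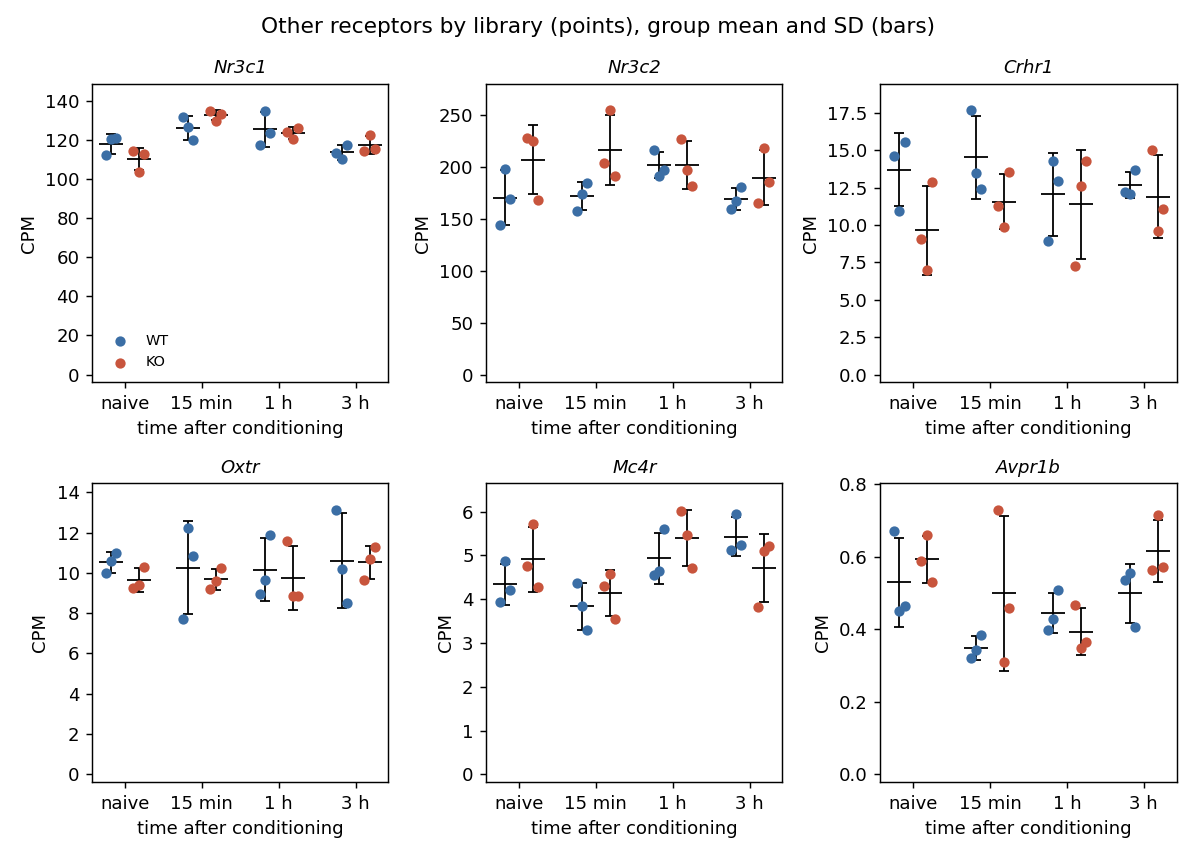
CPM of Nr3c1, Nr3c2, Crhr1, Oxtr, Mc4r and Avpr1b in each library (points) by time and genotype, with the group mean and SD (n = 3). Nr3c1 has its highest group mean in Tob-KO at 15 min (133 CPM) and its lowest in naive Tob-KO (110 CPM), and Oxtr stays between 9.64 and 10.6 CPM in its group means.

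Nr3c2 and Crhr1 ran in opposite directions from library to library (r = -0.79 over 24 libraries). Nr3c2 correlated with the sum of the hippocampal subfield markers at r = 0.81 and Crhr1 at -0.79. The genes most like Nr3c2 were Cpne4, Fam13c and Gria1, an AMPA receptor subunit (r = 0.88 for each). Those most like Crhr1 were Tmem44, Cux2, a transcription factor of upper cortical layers, and Cit (r = 0.94, 0.94 and 0.92). Crhr1 averaged 9.64 ± 2.96 CPM in naive Tob-KO and 13.7 ± 2.42 CPM in naive WT (SD, n = 3 each; log2 difference -0.50, adjusted p = 1 by the exact test of edgeR).

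Likeness divided the sparse receptors too. The genes most like Mc3r were Ano2, Six3os1 and Npffr1 (r = 0.90, 0.90 and 0.88), and those most like Glp1r were Npffr1, Col6a3 and A230065H16Rik (r = 0.94, 0.94 and 0.93). Avpr1a was most like Ankfn1, Dlx1 and Zic1, the last a transcription factor of the septum (r = 0.89, 0.85 and 0.85). Crhr2 was most like Vat1l, Inadl and Otx2, the last a transcription factor of the choroid plexus (r = 0.90, 0.89 and 0.88). Among members, Mc3r correlated with Glp1r at 0.87, with Crhr2 at 0.80 and with Avpr1a at 0.70. The 3 genes most like Nr3c1 were Shroom2, Fermt2 and Fos, an activity-induced transcription factor (r = 0.81, 0.80 and 0.80). The gene most like Oxtr was C530008M17Rik (r = 0.88), that most like Mc4r was Kdm2b (r = 0.81) and that most like Avpr1b was Gpr83 (r = 0.71).

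Of the partners of the corticosteroid receptors, 1 of 9 was called at 15 min against naive in both genotypes together, beside 4.7% of genes. Fkbp5, a chaperone that holds the receptors in their inactive form, fell by 0.38 on the log2 scale (SE 0.06, adjusted p = 0.00224 by the quasi-likelihood test of edgeR). Among 16 genes known to be induced by corticosteroids, 7 were called lower and 1 higher in the same comparison, beside 4.7% of genes. Their median log2 difference was -0.23, beside 0.00 over all genes. The list was chosen with earlier results of these data known. Plin4 fell by 2.62 (SE 0.40) and Hif3a by 1.46 (SE 0.24), while Dusp1, which neuronal activity also induces, rose by 1.12 (SE 0.17). Tsc22d3, Sult1a1, Zbtb16 and Klf9 were the remaining ones called lower beside Fkbp5. At 1 h 3 were called higher (Per1, Errfi1 and Pdk4) and 2 lower (Plin4 and Hif3a), beside 6.15% of genes. Within WT, 0 of the 16 were called at 15 min (median log2 difference -0.15), against 0.0462% of genes. Within Tob-KO, 6 were called lower, Fkbp5 among them, and 1 higher (median -0.50), against 2.51% of genes. The interaction of genotype and time called 0 of the 16 at 15 min. Between genotypes at 15 min, beside 0.555% of genes, 1 of the 16 was called, Hif3a. It was 1.24 lower on the log2 scale in Tob-KO (SE 0.22, adjusted p = 0.000461 by the exact test of edgeR). In that comparison 0 of the 16 were above 0 (median -0.20). Lcn2, 1 of the 16, was also picked by the study from these libraries.

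Ligand mRNAs of the surface receptors were sparse. Crh averaged 2.62 CPM and its binding protein Crhbp 28.8 CPM, whereas the urocortins Ucn, Ucn2 and Ucn3 had 0 reads in 16, 16 and 23 of 24 libraries. Avp and Oxt were at 0 in 4 and 9 libraries, with at most 11 and 7 reads. Pomc, the precursor of the melanocortin agonists, averaged 0.948 CPM, Agrp, their antagonist, 0.042 CPM, and Gcg, the precursor of glucagon-like peptide 1, had no read in 19 libraries. None of the 2 CRF, 2 vasopressin and oxytocin, 7 melanocortin and 4 incretin pathway genes that passed the filter over 24 libraries was called in any of the 17 comparisons. Among 12 other hormone receptors, Prlr, the prolactin receptor, which choroid plexus also expresses, was called between genotypes at 15 min (log2 difference 2.89, SE 0.68, adjusted p = 0.00533 by the exact test of edgeR).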

How the data were processed

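The authors deposited 1 table of read counts per gene, made with STAR 2.6.1d on GRCm38 and HTSeq 0.9.0. The gene annotation and strand setting are not given in the sources used here. All 24 count columns were matched to samples by title; the columns of the earliest time after training carry another hour label and were matched through the series' design text. Members, lists and rules were chosen with earlier results of these data known. The named genes are the 10 members, the genes of the lists, the 3 genes most like each member (mean of at least 1 CPM, Pearson r of log2 CPM with a prior count of 2) and Tob1. Genotypes at 1 time point were tested with the exact test of edgeR 4.0.16 (at least 0.2 CPM in 2 of 6 libraries, TMM, FDR 0.05, p 0.05, fold 2), as in the study; SEs there are from the quasi-likelihood fit. Other comparisons used the quasi-likelihood test on 24 libraries, with no fold limit; as an alternative for genotypes at 1 time point it kept the fold limit of 2, unless stated. p-values were adjusted over all genes tested. Exon lengths are unions of GENCODE exons. Scripts were tested on simulated data. Libraries of 1 group differed by 3.68 to 22.8 times the sampling noise (chi-square per degree of freedom), so none was counted as a duplicate.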

Additional observations from a re-analysis of the deposited data

Results flagged for a closer look

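No group held 4 or more libraries, so single far-off libraries were not tested for. For 2 members, every library of WT lay on one side of its naive mean and every library of Tob-KO on the other. Avpr1a at 15 min was below the naive mean in all 3 WT libraries and above it in all 3 Tob-KO libraries, and the test of the interaction gave a log2 difference of 1.80 (SE 0.83, adjusted p = 0.981 by the quasi-likelihood test of edgeR). Nr3c1 at 3 h was below the naive mean in WT and above it in Tob-KO, with a log2 interaction of 0.15 (SE 0.07, adjusted p = 0.894 by the same test). Neither difference passed the test.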

How the results depend on the processing

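Direction and call were examined for 17 counts of called members and 13 single differences. Of 103 counts under the other planned settings 97 were equal or within 1.5 times, as were 329 of 336 with 1 library left out. Most of the 17 counts were 0, and a 0 that stayed 0 was taken as equal. These shares therefore say little about the counts above 0. In the 15 min genotype comparison the count of 2 became 0 with the quasi-likelihood test and 0 with the replicate block. It was also 0 with the quasi-likelihood test without its fold limit, a setting chosen after seeing the data. Dispersions from 24 libraries gave 1, and leaving out single libraries gave 2 to 3. The choroid sets and the 2 WT libraries of lowest septum sum were also chosen after seeing the data. Fits without the 2 choroid-rich Tob-KO or these 2 WT libraries leave 1 library in a group, so their calls are not given. DESeq2 gave 1 in place of 0 for genotype over all time points (Mc3r) and for 1 h against naive (Nr3c1). The count for 15 min against naive became 0 within choroid-rich and 0 within choroid-poor libraries, sets that differ in their genotypes at 15 min. Within Tob-KO it became 0 with only the 6 libraries compared. The cause was not tested, beyond the fewer libraries in these subsets. With 1 library left out, the 1 h count ran from 0 to 1 (1, Nr3c1, without WT naive replicate 2 or 3, WT 15 min replicate 3, WT 1 h replicate 1 or Tob-KO 3 h replicate 2) and the Tob-KO 15 min count from 0 to 1. Of 339 values of single members 1 reversed: the genotype difference of Glp1r over all time points was -0.12 within choroid-rich libraries. That set holds no WT library of 15 min.

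Genes called over the whole table between genotypes at 15 min, at a fold of 2 or more, numbered 0 with the quasi-likelihood test (1, Tob1, without the fold limit) and 6 with the replicate block, beside 102 with the exact test; with 1 library left out the exact test called 30 to 252. Same-numbered libraries did not deviate together in all 3 pairs of any of the 10 comparisons checked (mean correlation from -0.202 to 0.245), so the numbers were not taken as pairs; the replicate block changed no other count of members. Depth limits Mc3r, Avpr1a and Avpr1b most, with medians of 22.5, 24 and 16 reads.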

Other observations

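Of the 12 other hormone receptors, Igf1r, the insulin-like growth factor 1 receptor, was called lower at 15 min than in naive mice within Tob-KO (log2 difference -0.23, SE 0.06, adjusted p = 0.0469 by the quasi-likelihood test of edgeR). Lepr, the leptin receptor, averaged 3.29 ± 0.400 CPM in WT and 6.73 ± 3.36 CPM in Tob-KO at 15 min (SD, n = 3 each; log2 difference 1.04, adjusted p = 0.161 by the exact test of edgeR). The estrogen receptor Esr1 differed by -0.04 (SE 0.24) in the same comparison.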
